A study of Mus musculus with 3 samples.

Results

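The genes described are 10 regulators of the Eya-, Six- and Sall-families in the embryonic mouse ureter, the muscular duct between the kidney and the bladder: Eya1, Eya2, Eya3, Eya4, Six2, Six4, Six5, Sall1, Sall2 and Sall4. They were chosen by name, and every array feature (probe set) annotated with exactly 1 gene symbol, equal to a listed name, was taken. That gave 23 probe sets for the 10 genes, of 34958 such probe sets for 18194 genes in all. The samples were 3 ureter preparations of wild-type FVB/N embryos at embryonic day 15 (Theiler stage 23), called replicates 3, 8 and 9, each on a 1-colour Affymetrix Mouse Genome 430 2.0 array. They form 1 group, with no second stage, tissue or genotype, and whether they came from separate embryos or litters is not stated, so the spread between them may be partly technical. The sex was given as unknown and the samples were not pooled.

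Eya proteins are transcriptional coactivators with a phosphatase domain and do not bind DNA themselves. They are brought to genes by Six-family proteins, homeodomain factors with a neighbouring domain that contacts Eya, and Pax and Dach factors act in the same network. Sall proteins are zinc finger factors that recruit the NuRD chromatin remodelling and deacetylase complex. In the urinary tract these families are known from the early kidney: mouse embryos without Eya1 form no kidneys, Sall1 is needed for the ureteric bud to enter the metanephric mesenchyme, and Six2 keeps nephron progenitors undifferentiated. In humans, EYA1 and SIX5 have been linked to branchio-oto-renal syndrome and SALL1 to Townes-Brocks syndrome.

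Where a gene had several probe sets, the one brightest on average over the 3 arrays, as log2(signal + 1), gave the gene's level, printed as signal (linear intensity in arbitrary units). A gene or probe set was called above background on an array when it exceeded the 95th percentile of 34 measured genes of other organs. These organs included the pancreas, stomach, eye, testis and pituitary. The brightest of the 34 on average were the pancreas genes Cela1 (751 ± 104) and Cpa1 (365 ± 138). The limits were signals of 225, 284 and 442 in replicates 3, 8 and 9. Probe sets differ in brightness for reasons other than transcript amount, so no order of transcript amounts between genes follows from them, and markers said to lead a list are those with its brightest probe sets. With bulk tissue, fewer cells expressing a gene cannot be told apart from less RNA per cell.

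Most of the tissue's own markers gave signal. Of 10 measured markers of ureteric mesenchyme 9 were above background on all 3 arrays, led by Ptch1, Tbx18 and Id4, as were 6 of 8 of ureteric smooth muscle, led by Acta2, Mylk and Actg2, and 7 of 10 of urothelium, led by Foxa1, Krt5 and Trp63. Uroplakin genes of the mature urothelium were partly dim, and Upk2 was not above background on any array. Markers of tissues outside the ureter wall were also bright. All 8 hepatocyte markers and all 9 erythroid markers measured were above background, and 9 of 12 of skeletal muscle. For comparison, 56.8% of all named genes reached the same threshold. The share was 70% for urothelium and 75% for both ureteric smooth muscle and skeletal muscle. These counts alone therefore do not set the ureter's own markers apart from those of other tissues. The hepatocyte markers summed to 216750, 116382 and 165337 in replicates 3, 8 and 9. All 8 were highest in replicate 3, against 38.0% of all named genes. The ureteric mesenchyme markers summed to 44354, 75422 and 51152 in replicates 3, 8 and 9. Of these 10 markers 7 were highest in replicate 8, against 28.7% of all named genes. The arrays had median signals between 198 and 273, and control probe sets at the 3′ end of Actb outshone those at the 5′ end by 7.45, 6.50 and 4.0 times in replicates 3, 8 and 9. For Gapdh the same ratios were 18.9, 15.1 and 16.4.

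Of the 10 genes, 9 were above background on all 3 arrays, whereas 56.8% of all named genes were. The 9 were 3 of the 4 Eya genes and all 3 each of the Six- and Sall-family genes in the set. Eya2 was not above background on any array. Nor were Six3 and Six6, measured Six-family genes outside the set that are described below. By probe set the share was lower: 13 of 23 were above background on all 3 arrays, against 45.6% of all single-symbol probe sets, 2 on some arrays and 8 on none. Among the genes above background, 6 of the set had more than 1 probe set, and each of these had at least 1 that was not above background on all arrays. The same held for 73.7% of the 6753 genes of that kind on the array. No test was made of these counts, since the genes were chosen together and are not replicates.

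**Figure D1:**
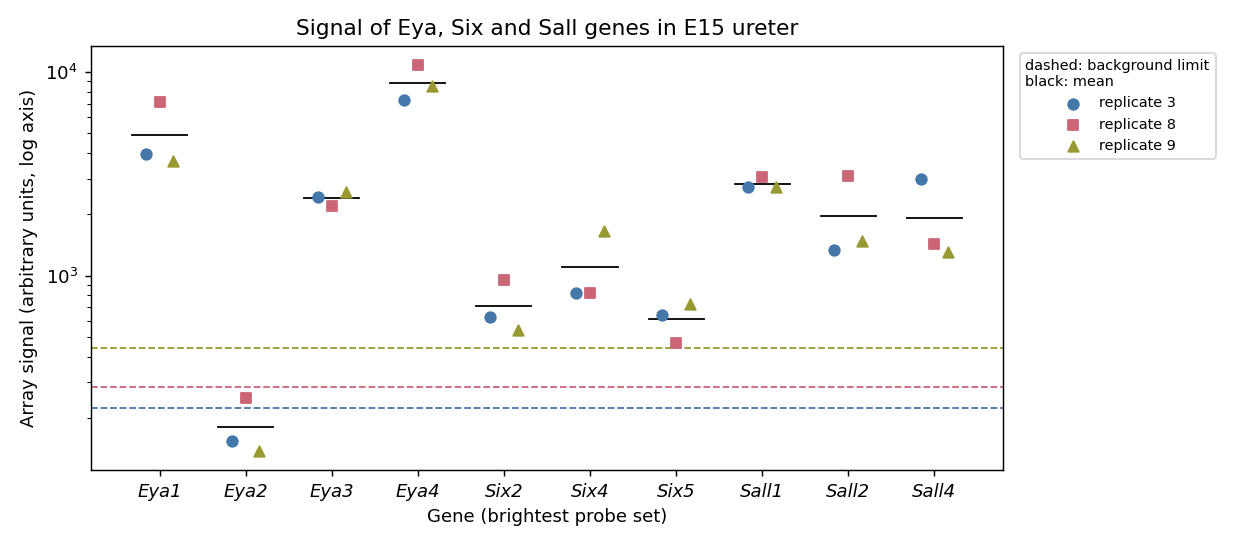
Signal of the brightest probe set of each gene (log axis, arbitrary units) in replicates 3, 8 and 9, with the mean as a black line and each array's background limit as a dashed line. Of the 10 genes, 9 lie above the limit on every array, and Eya2 lies below it on every array.

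Among the coactivators, Eya1, the gene whose loss leaves mouse embryos without kidneys, had signals of 3949, 7146 and 3665 in replicates 3, 8 and 9. Replicate 8 was 1.95 times replicate 9, while replicates 3 and 9 lay close together. The mean was 4920 ± 1933 (SD, n = 3, as for all means given). This level rests on 1 of 3 probe sets. The other probe sets had mean signals of 150 ± 25 and 50 ± 26, both below the limit on every array.

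Eya4, a gene linked in humans to hearing loss and cardiomyopathy, had signals of 7335, 10818 and 8515 in replicates 3, 8 and 9, with a mean of 8889 ± 1771. All values were at least 19.3 times the background limit of their array. A second probe set was also above background, with signals of 445, 1145 and 1610. Both were lowest in replicate 3, but the first was highest in replicate 8 and the second in replicate 9, where it reached 3.62 times replicate 3. Another was above background on 2 of 3 arrays at 378 ± 30, and the last had a mean of 34 ± 22.

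Eya3, the family member known for expression in many tissues, had signals of 2449, 2207 and 2575 in replicates 3, 8 and 9, a spread of 1.17 times between the lowest and the highest. Its second probe set above background gave 2723, 1772 and 1301. Its highest sample was replicate 3 and its lowest replicate 9, the sample in which the first probe set was highest, so the even level of Eya3 was not shared by its probe sets. The other 2 of its 4 probe sets had means of 140 ± 84 and 80 ± 14, below the limit on every array.

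Eya2, which in mice marks several placodes and muscle precursors, was measured by 1 probe set. Its signals were 154, 251 and 138 in replicates 3, 8 and 9, or 0.683, 0.883 and 0.312 times the background limits. It was the 1 gene of the set outside the threshold, and a probe set this dim gives only an upper bound on its level.

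**Figure D2:**
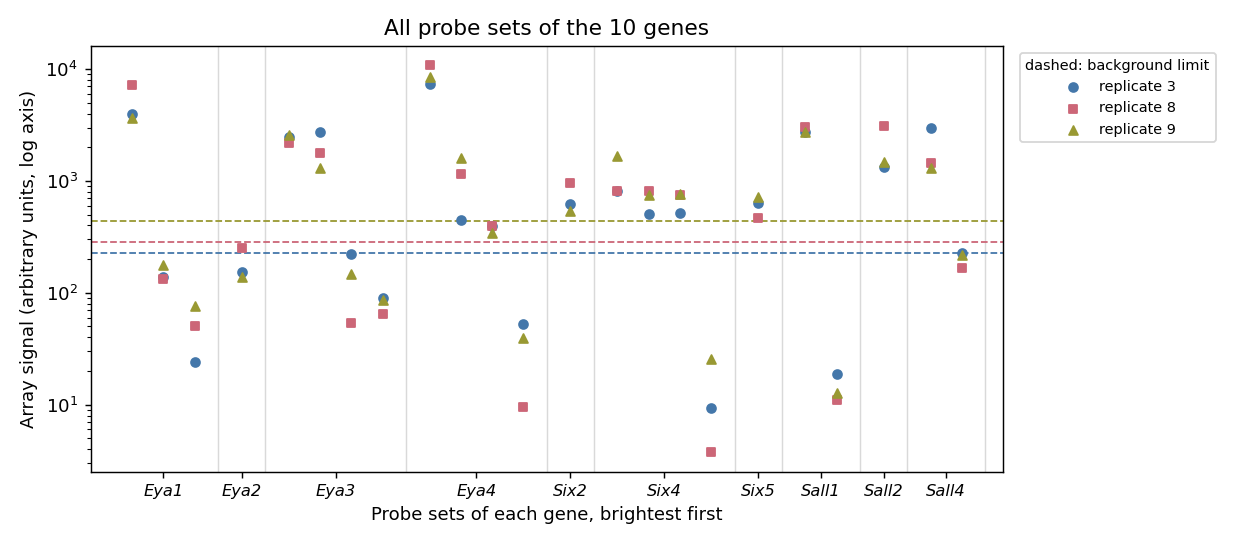
Signals of all 23 probe sets (log axis, arbitrary units), grouped by gene and ordered from the brightest, in the 3 replicates, with each array's background limit as a dashed line. For every gene with several probe sets at least 1 lies below the limits on at least 1 array, and the brightest and dimmest probe sets differ by 9.39 times for Sall4 and by 264 times for Eya4.

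The Six-family genes encode the DNA-binding partners of Eya. Six2, the factor of nephron progenitors, had signals of 627, 952 and 541 in replicates 3, 8 and 9, with a mean of 706 ± 217 from 1 probe set. In replicate 9 it was only 1.22 times the limit, the smallest margin of the 9 genes. Replicate 8 was the highest and 1.76 times replicate 9.

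Six5, which lies beside the myotonic dystrophy kinase gene in mouse and human, had signals of 640, 469 and 722 and a mean of 610 ± 129, also from 1 probe set. It was 2.85, 1.65 and 1.64 times the limits in replicates 3, 8 and 9. Replicate 8, in which Six2 was highest, was its lowest sample. With the 99th percentile of the background genes as the limit, neither Six2 nor Six5 was above background on all arrays, and 7 of the 10 genes were.

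Six4, which acts in muscle and in cranial ganglia of the mouse, had 3 of 4 probe sets above background on all arrays. Its brightest gave 818, 820 and 1659 in replicates 3, 8 and 9, so that replicate 9 was 2.03 times replicate 3, and replicate 8 lay beside replicate 3. The other bright probe sets, both annotated with the same transcript accession, gave 517, 752 and 763, and 511, 814 and 755. In these probe sets replicates 8 and 9 lay together and replicate 3 was the lowest, so the excess of replicate 9 over replicate 8 was found with 1 probe set. The last probe set had a mean signal of 13 ± 11. Six3 and Six6, genes of the forebrain and eye that were singled out after their values were seen, had 4 probe sets between them, none above background on any array, with means from 8.71 to 170.3.

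The Sall genes encode the zinc finger factors. Sall1 had signals of 2715, 3039 and 2713 in replicates 3, 8 and 9, with a mean of 2822 ± 187. The highest sample was 1.12 times the lowest, and only 6.59% of the genes above background had a smaller range on the log2 scale. The other Sall1 probe set gave 18.8, 11.1 and 12.8, so 1 probe set placed the gene at 6.14 to 12.1 times the limits and the other far below them. When all probe sets of a gene were averaged, Sall1, Eya1 and Six4 were no longer above background on all arrays, and 6 of the 10 genes were.

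Sall2, a Sall gene with a known role in closure of the optic fissure in mice, had signals of 1332, 3094 and 1475 and a mean of 1967 ± 978 from 1 probe set. Replicate 8 was 2.32 times replicate 3, the widest range of the set at 1.21 on the log2 scale. Without replicate 8 its range was 0.15.

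Sall4, a factor of pluripotent cells, germ cells and fetal liver, had signals of 2987, 1437 and 1308 in replicates 3, 8 and 9, with a mean of 1911 ± 935. Replicate 3 was 2.28 times replicate 9, and the range on the log2 scale was 0.14 without replicate 3, against 1.19 with it. The second probe set, matched to the same accession, gave 227, 166 and 218 and passed the limit in replicate 3 alone. There replicates 3 and 9 lay close together, so the excess of 2.28 times over replicate 9 was found with 1 probe set.

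Of the 7 genes with a promoter in the RefSeq table (12 start sites, build GRCm38.p6), Six2 and Sall2 are shown. Both were highest in replicate 8, as were Eya4 and Sall1, whose windows are not shown. Sall2 was also taken because its starts differ in sequence. No link between promoter sequence and the replicates was tested. Each run holds the 250 bases before an annotated start, read on the minus strand. Capitals mark the GC box, searched on both strands as GGGCGG, which 32.7% of all 32851 promoter windows of this length hold. They also mark the TATA box, searched on both strands as TATAAA, which 12.4% of the windows hold. The motifs do not overlap each other.
Six2, chr17:85688255-85688504: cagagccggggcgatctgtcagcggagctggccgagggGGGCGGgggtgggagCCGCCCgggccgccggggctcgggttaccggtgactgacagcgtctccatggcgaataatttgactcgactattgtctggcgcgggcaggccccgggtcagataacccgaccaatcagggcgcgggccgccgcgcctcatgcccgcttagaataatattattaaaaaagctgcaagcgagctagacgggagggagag
Sall2 upstream start, chr14:52328671-52328920: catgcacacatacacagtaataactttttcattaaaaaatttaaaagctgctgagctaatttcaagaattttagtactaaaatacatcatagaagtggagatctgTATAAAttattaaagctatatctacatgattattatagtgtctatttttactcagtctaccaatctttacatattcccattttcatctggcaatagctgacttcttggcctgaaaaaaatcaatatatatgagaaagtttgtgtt
Sall2 downstream start, chr14:52316324-52316573: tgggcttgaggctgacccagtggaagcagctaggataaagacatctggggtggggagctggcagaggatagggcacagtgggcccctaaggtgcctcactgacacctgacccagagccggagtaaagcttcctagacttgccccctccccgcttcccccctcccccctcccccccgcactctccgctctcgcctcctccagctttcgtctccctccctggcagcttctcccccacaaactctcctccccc
The Six2 window was 64.8% G and C with 26 CpG dinucleotides and 2 GC boxes, and the downstream Sall2 window was 64.4% with 6 and none. The upstream Sall2 window was 28.0% G and C with no CpG and held 1 TATA box, which began 145 bases before the start. Over all promoter windows the medians were 52.4% and 6 CpG. Among the 12 windows of the 7 genes, 11 were above that median in G and C, 9 held a GC box and 1 a TATA box. These windows are not all separate: the pair of Eya4 windows overlap by 197 bases and the pair of Six4 windows by 70, and each pair holds the same GC box. The array does not show which start was used.

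The median range over the 10 genes was 0.84 on the log2 scale, against 0.55 over all genes above background, whose upper quartile was 0.83. The 10 include Eya2, which was not above background. Among the 9 that were, the middle range was that of Six2, 0.81, just under that quartile. Over all named genes the median was 0.73. A range of at least 1 was found for 3 of the 10 genes, Six4, Sall2 and Sall4, all among the 9 above background. It was found for 15.7% of all genes above background. Of the 10 genes 6 were highest in replicate 8 (Eya1, Eya2, Eya4, Six2, Sall1 and Sall2), whereas 28.7% of all named genes were. Another 3 (Eya3, Six4 and Six5) were highest in replicate 9, against 33.3% of all genes, and Sall4 was highest in replicate 3, against 38.0%. Without replicate 8 the order turned, with a median range of 0.17 over the 10 genes and 0.34 over genes above background. Without replicate 3 the values were 0.72 and 0.36, and without replicate 9 they were 0.58 and 0.30.

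**Figure D3:**
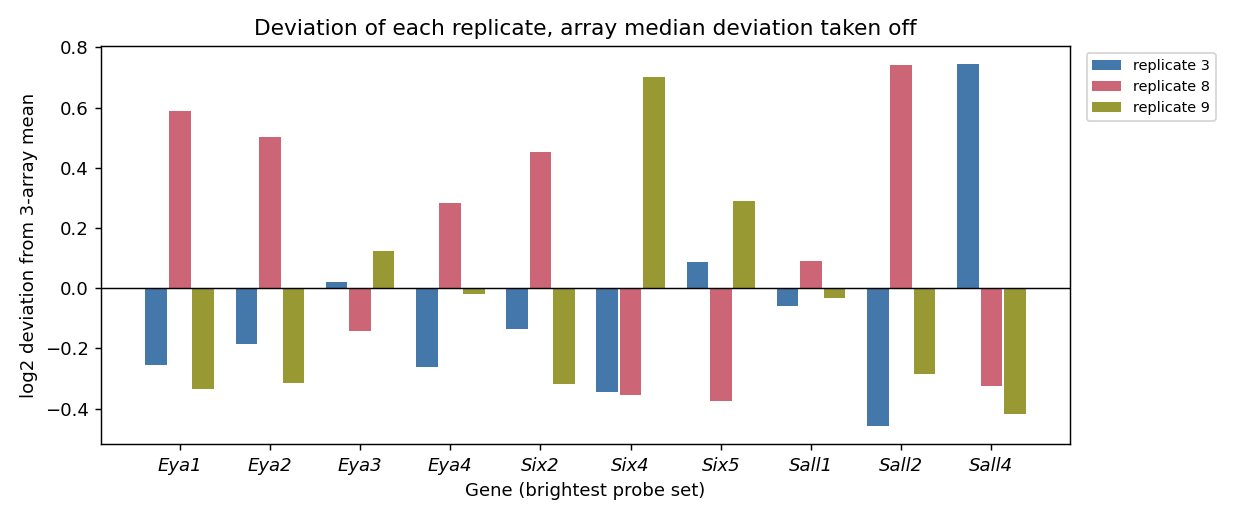
Deviation of each replicate from the gene's 3-array mean on the log2 scale, after the array's median deviation was taken off. Replicate 8 stands above the other samples for Eya1, Eya2, Eya4, Six2 and Sall2, by up to 0.74 above the mean for Sall2, while Sall4 is raised in replicate 3 by 0.74 and Six4 in replicate 9 by 0.70.

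Some marker lists were highest in the same replicate as these genes and others were not. The part of any list in the differences between replicates was not tested. Beside the high values of Eya1, Six2 and Sall2 in replicate 8, the mesenchymal gene Tbx18 had signals of 7828, 20079 and 7442 in replicates 3, 8 and 9. The 10 nephron progenitor markers, from which Six2, Eya1 and Sall1 had been kept out, were not highest in replicate 8 in their sum. They summed to 37770, 36416 and 52693 in replicates 3, 8 and 9. Most of that sum came from Capn6 (16594, 10619 and 26614) and Cited2 (14079, 18069 and 19847), both highest in replicate 9. By gene the list was mixed: 3 of 10 were highest in replicate 3, 3 (Crym, Uncx and Cited1) in replicate 8 and 4 in replicate 9. Of these 10 markers 6 were above background on all arrays, led by Cited2, Capn6 and Crym, a share near the 56.8% of all named genes. Another 3 were above background on no array, including Cited1, a gene of uncommitted progenitors, at 174 ± 47. Markers of nephron epithelium and podocytes were above background for 2 of 10 (Podxl and Jag1), and all 4 renal stroma markers measured were, led by Foxd1 at 11151 ± 1633.

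Beside the high signal of the brightest Sall4 probe set in replicate 3, germ cell markers summed to 6178, 2341 and 2449 in replicates 3, 8 and 9. Of the 9 measured 7 were highest in replicate 3, against 38.0% of all named genes. The largest part of the replicate 3 sum came from 1 gene, Mael, a germline gene of piRNA defence, which gave 2604, 108 and 28.8. The vasa gene Ddx4 gave 152, 3.65 and 6.38, below the limit throughout. Only Kit and Tfap2c, which other tissues also express, were above background on all arrays. Pou5f1, the pluripotency factor that works with Sall4, gave 415, 62.0 and 109.9 and passed the limit in replicate 3 alone. The hepatocyte sum was also highest in replicate 3, as given above, and the erythroid markers summed to 182429, 88964 and 143291 in replicates 3, 8 and 9. In the germ cell, hepatocyte and erythroid sums replicate 8 was the lowest, whereas Sall4 was lowest in replicate 9. Neuron and glia markers did not follow Sall4: they summed to 9735, 15798 and 19631 in replicates 3, 8 and 9. Of these 8 markers 6 were above background on all arrays, against 56.8% of all named genes. Of 7 gonad and adrenal markers none was above background on all arrays, although 6 were on at least 1. That count of none depended on the setting. It was 3 with the 90th percentile of the background genes as the limit, 4 with at least 2 arrays required and 4 without replicate 9. In these settings 61.4%, 62.7% and 61.4% of all named genes were above background.

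Partners and targets of the families were described with lists. Of the 8 Pax and Dach genes measured 3 (37.5%) were above background on all arrays, against 56.8% of all named genes. Dach1 and Dach2, cofactors that often repress targets of this network, had means of 2627 ± 986 and 1527 ± 491, and both were highest in replicate 8, as Eya1 and Six2 were. Pax7, a gene of muscle precursors, had a mean of 1284 ± 63. Pax8, a kidney lineage gene, and Pax6, an eye and forebrain gene, were not above background on any array (178 ± 56 and 103 ± 52). Pax2 was not analysed here.

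The NuRD complex, the corepressor of Sall proteins, was above background for 12 of 13 subunit genes, against 56.8% of all genes. The histone-binding subunits Rbbp7 and Rbbp4 had means of 44171 ± 7348 and 41131 ± 6827, and the deacetylase gene Hdac2 17629 ± 3668. These levels came from probe sets whose names end _x_at or _s_at. With such probe sets dropped, 12 subunit genes were still above background. In the main setting Mbd3 was the exception, above background on 2 of 3 arrays with signals of 615, 747 and 432. Its value in replicate 9 lay just under that array's limit.

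Of 12 measured genes that act with these families in the early kidney, 8 (66.7%) were above background, against 56.8% of all named genes. Itga8, an integrin gene needed for bud invasion, had signals of 3813, 8473 and 5456 in replicates 3, 8 and 9. Kif26b, a kinesin-family gene that is a known Sall1 target in mouse kidney, gave 3589, 6079 and 7813, while Sall1 itself was nearly level. Wnt4, which drives the epithelial transition of nephron progenitors, gave 1076, 2437 and 2371. Gdnf, the bud-inducing ligand regulated by Eya1 in mice, had a mean of 1783 ± 513 with its lowest sample in replicate 9, and its receptor gene Ret 533 ± 127. Hoxd11 was not above background on any array (129 ± 26).

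Myogenic genes known as targets of Six-family and Eya proteins were above background for 7 of 10, against 56.8% of all named genes. Among the 7 were the embryonic myosin gene Myh3 (22257 ± 3328), the glycolytic gene Aldoa (19450 ± 3501) and Acta1, skeletal muscle actin (16253 ± 3118). Six4 and the Eya genes are active in skeletal muscle as well as in the kidney. The 12 skeletal muscle markers summed to 79821, 69642 and 66999 in replicates 3, 8 and 9. Of the 12, 5 were highest in replicate 3, against 38.0% of all named genes. Another 3 were highest in replicate 9, as the brightest Six4 probe set was, against 33.3% of all named genes. Of 7 pluripotency partners of Sall4, 2 (28.6%) were above background on all arrays, against 56.8% of all named genes. These were Tbx3 and Sox2 (2891 ± 1498 and 828 ± 518), genes that also act in mesenchyme and in neural cells. Esrrb, Zfp42 and Nanog were not above background on any array, with means of 149 ± 75, 34 ± 30 and 21 ± 25.

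**Figure D4:**
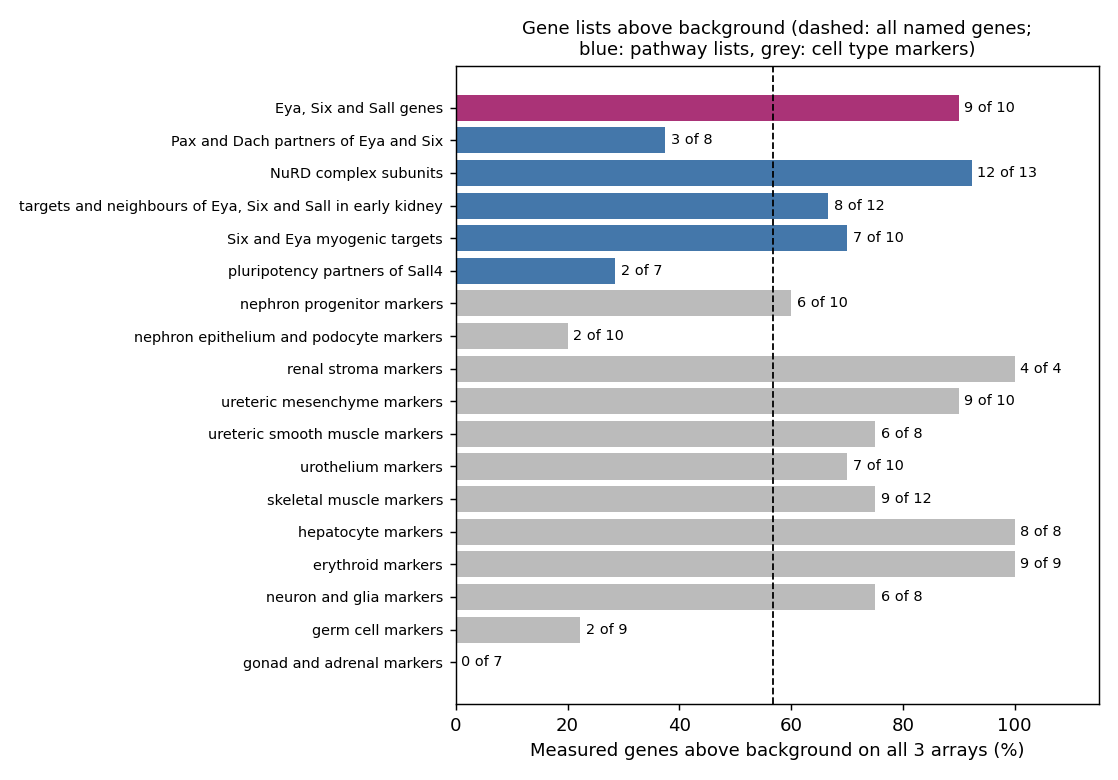
Share of the measured genes of each list above background on all 3 arrays, with the counts beside the bars and the share of all named genes (56.8%) as a dashed line. The 10 regulators (9 of 10) and the NuRD subunits (12 of 13) lie above the line, as do the hepatocyte (8 of 8) and erythroid markers (9 of 9). The Pax and Dach partners (3 of 8), pluripotency partners (2 of 7) and germ cell markers (2 of 9) lie below it.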

How the data were processed

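The deposited values are linear signal intensities, 1 per probe set and array, for 45101 probe sets. The submitters' processing notes name GCOS, the array maker's software, with no version or settings. The 2% trimmed mean was 1500 on each array, so the authors' values had been scaled to a common mean. Levels are therefore relative to the rest of an array. Per the labels' protocols, RNA went through 2 rounds of amplification. No detection calls or depth come with these values, and the number of arrays limits their precision.

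Probe sets were named from the platform annotation: 34958 had 1 symbol, 932 several and 9211 none here. All 10 genes matched the mouse gene table (GRCm38.p6) by Entrez ID. Signals were analysed as log2(signal + 1) with Python 3.11.15 and pandas 2.3.3. Background came from a list of 41 genes of other tissues, 34 of them measured, 1 of them (Cela1) above its own limit. With 1 group no test was run. The calling step was run on simulated data whose raised genes lay far above background, which says nothing about calls near the limit. The genes, lists and thresholds were chosen with earlier results of these data known. Named list genes are up to 3 of the brightest above background and up to 4 not above background on any array; others named were chosen after their values were seen. A likeness of patterns was not measured over 3 arrays. Other settings tried were quantile normalization, larger pseudocounts (16 and 64), averaging all probe sets of a gene, background limits at the 90th or 99th percentile, dropping probe sets whose names end _x_at or _s_at, 2 arrays in place of 3, and dropping each replicate.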

Additional observations from a re-analysis of the deposited data

How the results depend on the processing

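The count of 9 genes above background was the same with quantile normalization, pseudocounts of 16 and 64, _x_at and _s_at probe sets dropped, the 90th percentile, at least 2 arrays, each replicate left out and no exocrine pancreas genes in the background list, a setting added once the values had been seen. It was 6 when all probe sets of a gene were averaged and 7 with the 99th percentile, for which 44.1% and 49.0% of all genes were above background. Eya2 was not above background in any of these. The count of 13 probe sets was 8 with the 99th percentile and 12 to 14 otherwise. The median level of the 10 genes, 10.82 on the log2 scale, was 8.96 with probe sets averaged, since dim probe sets enter it. The median range of 0.84, against 0.55 over genes above background, was 0.17 against 0.34 without replicate 8, 0.72 against 0.36 without replicate 3 and 0.58 against 0.30 without replicate 9. It was thus below that of other genes when replicate 8 was left out and above it otherwise. It was 0.69 to 0.93 under quantile normalization, the other pseudocounts, probe set choices and centring. The comparison value of 0.55 was 0.73 over all named genes with no filter on low values. The 10 genes include Eya2, which that filter would leave out. Without replicate 9 the range of Six4 was 0.0038. Of the alternatives set beforehand, a second background list was not run, since the list used was the only one at hand. No paired analysis was possible because there is 1 group.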
